A study of Homo sapiens with 8 samples.

Results

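The 10 genes described here are the BMP antagonists NOG, GREM1 and FST, the ligands BMP2 and BMP4, the receptor BMPR2, the inhibitory mediator SMAD6 and the target genes ID1, ID2 and ID3. They were chosen by symbol, with earlier results of these data known, and are 10 of the 19056 genes matched. Each probe was matched to its gene through the accession on the array. The study asked how A549 cells, an established human lung carcinoma line, responded to EEDS, the ethanol extract of Descurainia sophia seeds, and to helveticoside, a cardiac glycoside found in those seeds. Expression was read on 8 one-colour Agilent arrays, 4 per agent.

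The EEDS arrays were of cells given vehicle or 1.25, 5 or 20 μg/mL, and the helveticoside arrays of cells given a separate vehicle or 3.75, 15 or 60 nM. All 8 arrays were of the same line, treated according to the labels for 48 h, begun 24 h into culture, whereas the study's methods give a shorter exposure for the arrays. Each array carried RNA pooled from 3 cultures, so that 1 value per dose was available and the spread between cultures could not be seen. EEDS is a mixture and helveticoside a single compound, their doses were not matched, and agent and series cannot be told apart, so their values are given side by side. The pools were of bulk RNA, in which fewer cells carrying a transcript and less transcript per cell cannot be told apart.

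Bone morphogenetic proteins are secreted ligands that bind a complex of type I and type II receptors, BMPR2 being a type II receptor, and the activated complex phosphorylates SMAD proteins that enter the nucleus and switch on target genes. Noggin, the product of NOG, and gremlin 1, that of GREM1, bind BMPs outside the cell and keep them from their receptors, whereas follistatin, that of FST, binds mainly activins and also some BMPs. SMAD6 acts inside the cell as a feedback inhibitor, and the ID proteins, encoded by classical BMP target genes, bind E proteins and keep them off DNA. In the lung the pathway is known for its part in branching and in the differentiation of airway and alveolar epithelium, and BMPR2 for its mutation in heritable pulmonary hypertension.

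Because the genes include antagonists, feedback inhibitors and targets of one pathway, the DNA just before their starts is shown for the genes whose levels are followed most closely below. The RefSeq promoter table (GRCh38.p14) held 11 windows of 250 bases before a start for 8 of the 10 genes, and none for NOG and BMP2. On both strands, 8 motifs were searched, with the share of all 35116 such windows that held each in parentheses. They were the SMAD palindrome GTCTAGAC (0.182%), the GC-rich element GGCGCC bound by BMP SMADs (16.4%), the AP-1 element TGANTCA (6.57%), the CRE half-site TGACG (21.2%), the EGR element GCGTGGGCG (0.72%), the GC box GGGCGG (42.6%), the E-box CANNTG (61.8%) and the TATA box TATAAA (10.7%). Capitals mark every match, read 5′ to 3′ along the gene's strand, and a match is a description of the letters and not of a bound site.
GREM1, chr15:32717754-32718003, plus strand: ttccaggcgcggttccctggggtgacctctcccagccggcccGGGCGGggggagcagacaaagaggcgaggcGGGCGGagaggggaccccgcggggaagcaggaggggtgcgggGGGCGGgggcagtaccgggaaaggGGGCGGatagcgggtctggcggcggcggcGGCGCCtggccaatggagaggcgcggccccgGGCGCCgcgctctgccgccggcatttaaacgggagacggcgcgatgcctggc
FST, chr5:53480379-53480628, plus strand: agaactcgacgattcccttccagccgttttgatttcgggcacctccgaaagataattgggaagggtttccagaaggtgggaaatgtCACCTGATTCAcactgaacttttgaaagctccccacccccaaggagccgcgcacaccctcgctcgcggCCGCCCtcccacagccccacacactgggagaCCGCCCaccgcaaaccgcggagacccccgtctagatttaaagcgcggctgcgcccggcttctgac
SMAD6, chr15:66701986-66702235, plus strand: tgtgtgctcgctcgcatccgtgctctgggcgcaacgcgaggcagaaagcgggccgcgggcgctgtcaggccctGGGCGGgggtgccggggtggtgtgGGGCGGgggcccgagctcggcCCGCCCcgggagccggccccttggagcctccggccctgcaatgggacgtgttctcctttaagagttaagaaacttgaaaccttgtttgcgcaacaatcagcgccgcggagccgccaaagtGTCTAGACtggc
ID1, chr20:31605039-31605288, plus strand: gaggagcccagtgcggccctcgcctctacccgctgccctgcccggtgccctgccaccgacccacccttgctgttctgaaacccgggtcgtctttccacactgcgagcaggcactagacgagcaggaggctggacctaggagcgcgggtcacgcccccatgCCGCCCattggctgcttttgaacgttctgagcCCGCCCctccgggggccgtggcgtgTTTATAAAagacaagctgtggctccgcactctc
ID2, chr2:8681806-8682055, plus strand: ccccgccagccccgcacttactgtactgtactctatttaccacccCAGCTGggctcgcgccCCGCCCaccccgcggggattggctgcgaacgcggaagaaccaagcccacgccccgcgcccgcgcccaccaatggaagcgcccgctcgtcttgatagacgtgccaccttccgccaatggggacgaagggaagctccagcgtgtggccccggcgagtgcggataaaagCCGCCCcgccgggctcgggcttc
ID3, chr1:23559502-23559751, minus strand: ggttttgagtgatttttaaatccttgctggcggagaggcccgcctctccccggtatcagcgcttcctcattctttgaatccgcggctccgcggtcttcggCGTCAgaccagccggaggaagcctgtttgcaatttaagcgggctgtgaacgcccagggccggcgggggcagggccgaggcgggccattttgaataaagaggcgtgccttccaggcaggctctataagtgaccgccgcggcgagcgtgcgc

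The SMAD palindrome stood in 1 of the 11 windows, that of SMAD6, at bases 12 to 5 before the start. The GC-rich element GGCGCC stood in 3 windows, of which the GREM1 window shown held 2 copies, at bases 83 to 78 and 52 to 47, downstream of its 4 GC boxes. In the FST window the match to TGANTCA, at bases 160 to 154, had a T at the open middle position and overlapped an E-box at bases 164 to 159. The ID1 window held TATAAA once on each strand, at bases 33 to 28 and 31 to 26, and the 2 copies overlapped. The ID2 window held 2 GC boxes and 1 E-box, and the ID3 window held a single match, to the CRE half-site on the opposite strand. None of the 8 motifs was found in all 3 ID windows, and none of the 11 windows held the EGR element. The GC box stood in 8 of the 11 windows.

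**Figure D1:**
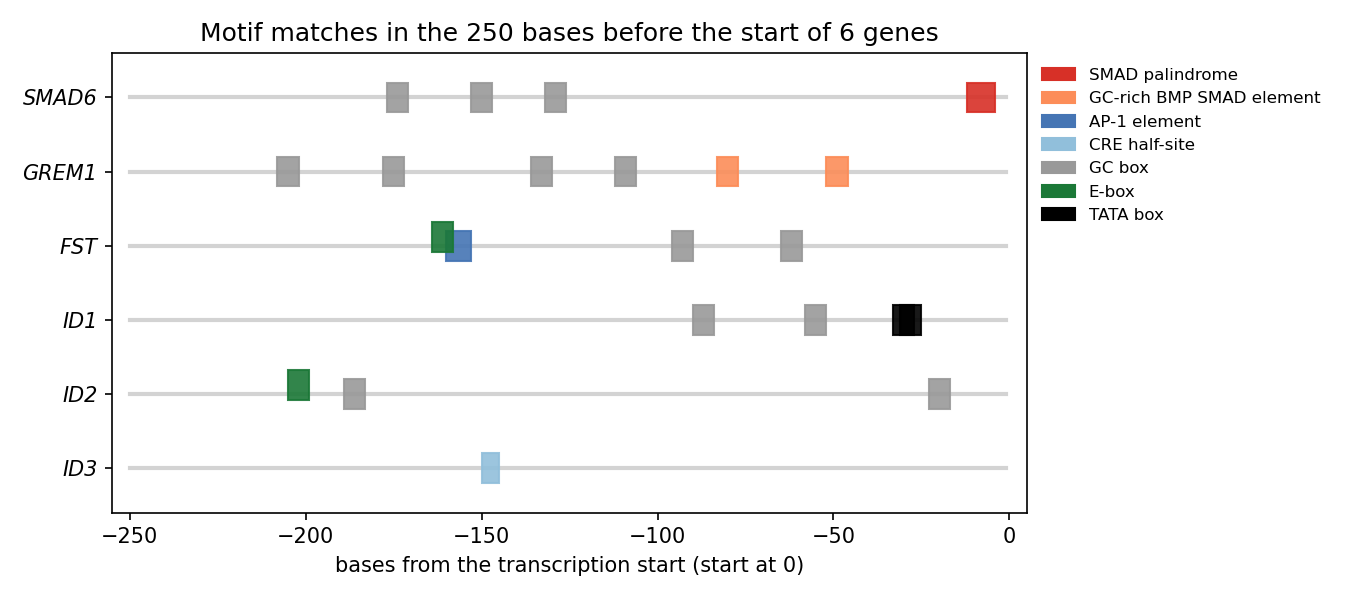
Matches to the searched motifs along the 250 bases before the transcription start of 6 genes. The horizontal axis is the distance from the start in bases, each coloured block is 1 match on either strand, and only SMAD6 carries the SMAD palindrome, at bases 12 to 5.

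Nearly all probe spots were bright enough to be measured, but the share well above background was 63.3% to 64.9% on the EEDS arrays and 54.5% to 59.5% on the helveticoside arrays. No probe spot was saturated. Probes spotted more than once on an array had a median spot SD of 0.069 to 0.085 on the log2 scale, a technical error within an array that says nothing of the spread between cultures. The only view of array-to-array spread was the pair of vehicle controls, which belonged to different series. Between them, the log2 differences of all genes had an SD of 0.65 and 10.4% of genes differed more than 2-fold. Among the 10 genes this was so for NOG alone, whose probe was not well above background on either control. The other 9 differed by 0.05 to 0.84 on the log2 scale, the widest gap being that of BMP2.

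All 10 genes passed the filter on low values in both series, as did nearly all of the 19056 genes (19046 with EEDS and 19056 with helveticoside). Of the 10, 8, all but NOG and BMP2, were well above background on all 8 arrays, as were 11493 of the 19056. The 10 lay on both sides of the vehicle level, with NOG and GREM1 the furthest above it. At 1.25 μg/mL EEDS, 3 of the 10, NOG, FST and ID2, were more than 2-fold higher than the vehicle control and none was lower, where the share of all genes was 4.22% above and 3.66% below. The count was 2, without NOG, with the scanned signal or normexp, and 2, without ID2, under 75th percentile scaling, normalization within series, the deposited values or the other control. At 5 μg/mL the counts were 4 higher and 1 lower, against 7.33% and 8.47% of all genes. At 20 μg/mL they were 5 higher, NOG, GREM1, FST, ID2 and ID3, and 2 lower, BMP4 and BMPR2, against 13.3% and 14.5%. The share of the 10 that was higher stood above that of all genes at each EEDS dose, and the share that was lower stood near it or at 0. Because the 10 were chosen with earlier results of these data known, the excess is a description and no test. With helveticoside, none of the 10 passed 2-fold at 3.75 nM, where the share of all genes was 3.38% above and 4.3% below. At 15 nM, 3 were higher and 1 lower, against 7.08% and 8.06% of all genes. At 60 nM the same 5 genes were higher and the same 2 lower as at 20 μg/mL EEDS, against 10.8% and 12.8%. The median log2 ratio of the 10 was 0.50, 0.37 and 0.61 along the EEDS doses and 0.20, 0.31 and 0.45 along the helveticoside doses, where that of all genes lay between -0.04 and 0.02.

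**Figure D2:**
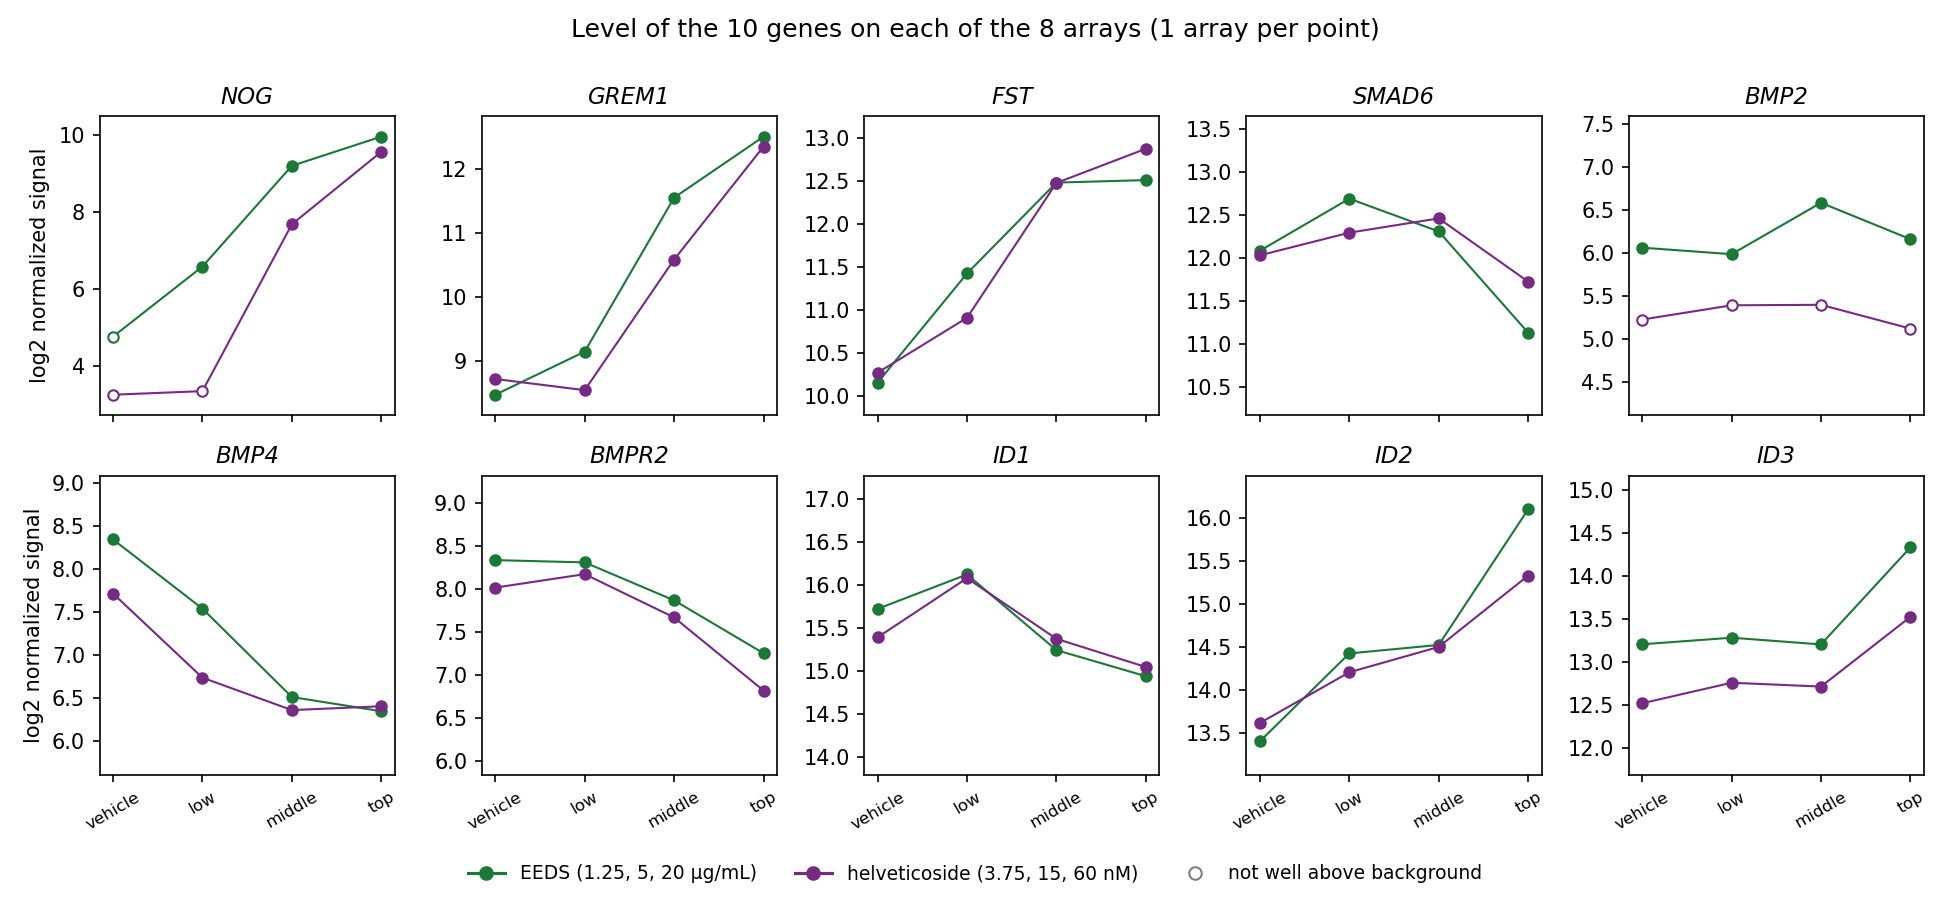
Log2 quantile-normalized signal of each of the 10 genes on the vehicle control and at the low, middle and top dose of EEDS (green) and helveticoside (purple), 1 array per point, each panel with its own vertical scale. NOG, GREM1 and FST are higher at the middle and top doses of both agents, BMP4 is lower at every dose, ID1 and SMAD6 peak at a treated dose below the top one, and open points mark arrays where the probe was not well above background.

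Levels are given below on the log2 scale of the quantile-normalized signal, in the order vehicle, low, middle and top dose. NOG was well above background on treated arrays alone. Its level was 4.76, 6.58, 9.20 and 9.96 in the EEDS series and 3.25, 3.35, 7.68 and 9.56 in the helveticoside series. Neither vehicle control nor the 3.75 nM array was well above background, and every other array was. Because the controls gave no measured level, the ratios are lower bounds, and only under the signal and scaling used here. With 1.25, 5 and 20 μg/mL EEDS, NOG exceeded the vehicle level by at least 3.53-fold, 21.7-fold and 36.6-fold, and with 15 and 60 nM helveticoside by at least 4.37-fold and 16.1-fold. These bounds did not hold under other processing. With the signal as scanned and with normexp correction the log2 ratio of NOG was 0.65 and 0.70 at 1.25 μg/mL, short of 2-fold. In the authors' deposited values NOG was 2.24-fold, 15.1-fold and 25.5-fold higher along the EEDS doses. There it was 2.59-fold and 7.30-fold higher at 15 and 60 nM helveticoside. Over the 9 settings of signal, scaling, filter and probe the lowest log2 ratio was 3.15 at 20 μg/mL, with the scanned signal, and 2.87 at 60 nM, in the deposited values. No fold is given at 3.75 nM, where both arrays were below the limit.

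GREM1 rose from a level that was already well above background in vehicle-treated cells. Its level was 8.47, 9.14, 11.55 and 12.51 along the EEDS doses and 8.72, 8.54, 10.59 and 12.35 along the helveticoside doses. The middle and top doses of both agents stood above both controls, and the 3.75 nM array did not. At the top dose GREM1 was 16.4-fold higher with EEDS and 12.4-fold higher with helveticoside. A second GREM1 probe, also well above background on all 8 arrays, read 6.19, 7.26, 9.63 and 10.56 with EEDS and 5.73, 7.48, 8.22 and 10.32 with helveticoside. The 2 probes moved alike at the middle and top doses but parted at 3.75 nM, where the log2 ratio was -0.17 on the one and 1.75 on the other, so whether GREM1 had changed at that dose could not be settled.

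FST levelled off between the middle and the top dose. It was spotted 10 times on each array, and its level was 10.16, 11.43, 12.48 and 12.51 with EEDS and 10.27, 10.91, 12.48 and 12.88 with helveticoside. All 6 treated arrays stood above both controls. The log2 step from 5 to 20 μg/mL EEDS was 0.03 and that from 15 to 60 nM helveticoside 0.40, after steps of 1.06 and 1.57 to the middle dose. The SD over the 10 spots was 0.037 to 0.045 on the 8 arrays, which is the spread within an array and not that between arrays. At the top dose FST was 5.11-fold higher with EEDS and 6.08-fold higher with helveticoside.

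Of the ligands, BMP4 was lower in treated cells and BMP2 was barely measured. BMP4 stood at 8.35, 7.54, 6.51 and 6.35 with EEDS and at 7.72, 6.74, 6.36 and 6.41 with helveticoside. All 6 treated arrays lay below both controls, and the level hardly moved between the middle and the top dose. BMP4 was 3.99-fold lower at 20 μg/mL EEDS and 2.48-fold lower at 60 nM helveticoside. With EEDS the log2 ratio at the top dose lay between -2.53 and -1.34 over the same 9 settings. The helveticoside difference depended on the processing, since with the signal as scanned, with normexp correction or in the authors' deposited values BMP4 no longer passed 2-fold at any dose of that agent. BMP2 read 6.06, 5.99, 6.59 and 6.16 with EEDS, a spread within 0.60 on the log2 scale and narrower than the gap between the 2 controls. With helveticoside the BMP2 probe was not well above background on any of the 4 arrays, and no fold is given.

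BMPR2, the type II receptor, was more than 2-fold lower at the top dose alone. It read 8.34, 8.31, 7.87 and 7.26 with EEDS and 8.02, 8.18, 7.67 and 6.82 with helveticoside, so that the low dose differed little from vehicle in either series and the middle and top doses of both lay below both controls. At the top dose BMPR2 was 2.12-fold lower with EEDS and 2.29-fold lower with helveticoside. Both values fell within 2-fold when the signal was taken as scanned or corrected by normexp, and the helveticoside value also in the authors' deposited values.

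SMAD6, the inhibitory SMAD whose window held the SMAD palindrome, did not follow the dose in one direction. Its level was 12.08, 12.69, 12.31 and 11.13 with EEDS and 12.03, 12.29, 12.46 and 11.72 with helveticoside. In both series the low and middle doses stood above the controls and the top dose below them. No SMAD6 value passed 2-fold, the nearest being a log2 ratio of -0.95 at 20 μg/mL EEDS, which became -1.02 in the authors' deposited values.

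The 3 ID genes took different courses. ID2 read 13.40, 14.43, 14.52 and 16.10 with EEDS and 13.62, 14.21, 14.50 and 15.33 with helveticoside, every treated array lying above both controls. Its log2 step was small between the low and middle doses, 0.10 with EEDS and 0.29 with helveticoside, and 1.58 and 0.83 from the middle to the top dose. At the top dose ID2 was 6.48-fold higher with EEDS and 3.28-fold higher with helveticoside. A second ID2 probe gave log2 ratios of 2.59 and 1.88 at the top doses, beside 2.70 and 1.71 on the first.

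ID3 passed 2-fold at the top dose alone. It read 13.20, 13.28, 13.20 and 14.33 with EEDS and 12.52, 12.75, 12.71 and 13.52 with helveticoside, and within each series the first 3 values lay close together. The top dose was 2.18-fold higher with EEDS and 2.01-fold higher with helveticoside, the second value only just past the threshold. Set against the EEDS vehicle control, which read higher, the 60 nM array no longer passed 2-fold.

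ID1, the best known BMP target of the 3, was highest at the low dose. It read 15.73, 16.13, 15.25 and 14.94 with EEDS and 15.39, 16.08, 15.38 and 15.05 with helveticoside. The low dose was the highest array of each series, with log2 ratios of 0.40 and 0.69, and the top dose was the lowest, with -0.78 and -0.34. No ID1 value passed 2-fold. When arrays were scaled to their 75th percentile, which shifted the median log2 ratio of all genes by -0.38 to 0.13 over the 6 doses, the last of these ratios became 0.02 and ID1 passed 2-fold at 3.75 nM. At the top doses the log2 ratio of ID2 therefore exceeded that of ID1 by 3.48 with EEDS and by 2.06 with helveticoside.

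To ask which levels trended with dose, a slope per dose step was fitted with limma over all 8 arrays, and p-values were adjusted over 19046 genes. A call does not mean a change at each step, since FST was called with EEDS and moved by 0.03 from 5 to 20 μg/mL. With EEDS, NOG, GREM1, FST and ID2 rose and BMP4 fell, 4 and 1 of the 10 genes, where 7.27% of all genes tested rose and 7.85% fell. With helveticoside, NOG, GREM1 and FST rose and none fell, where 5.48% of all genes rose and 5.8% fell. At an unadjusted p under 0.05, 6 of the 10 genes passed with each agent, where 33.4% of all genes passed with EEDS and 29.8% with helveticoside.

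**Figure D3:**
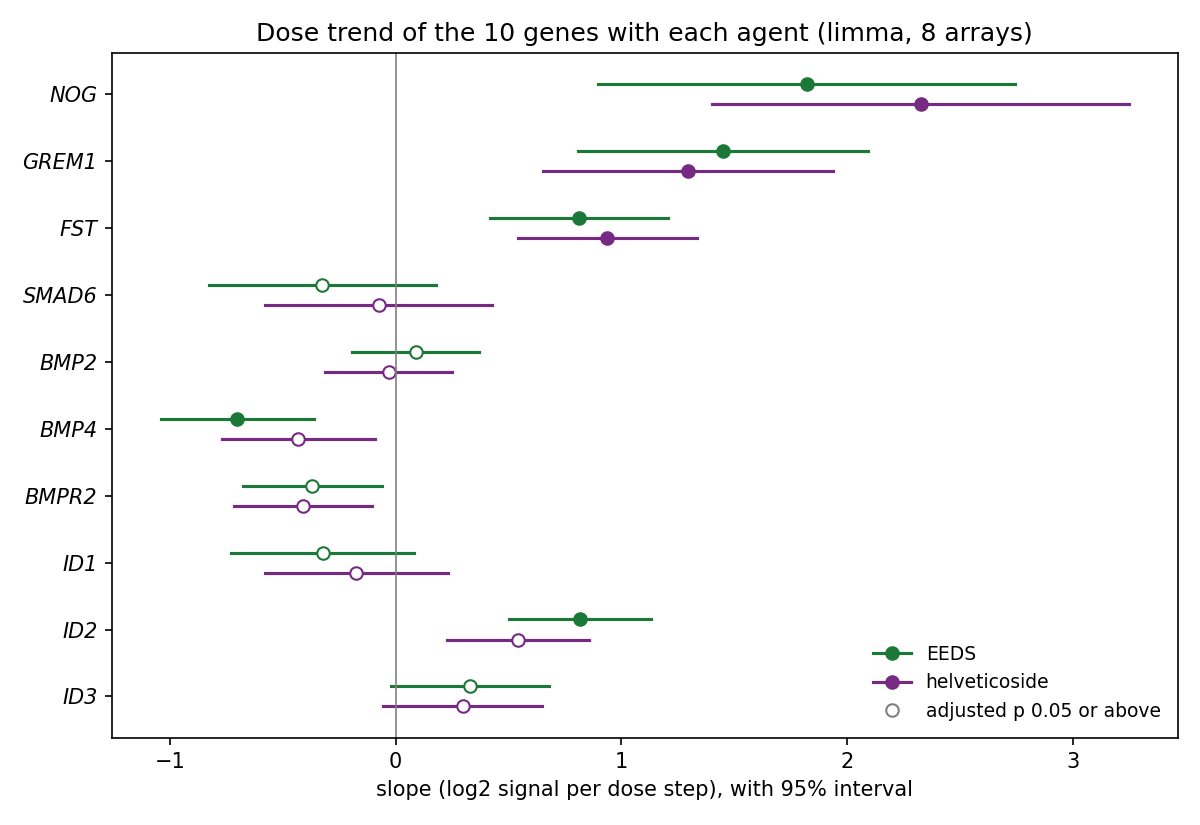
Slope of each of the 10 genes per dose step (log2 signal) with EEDS (green) and helveticoside (purple) from the limma fit over 8 arrays; bars are 95% intervals and filled points have an adjusted p under 0.05. The intervals of NOG, GREM1, FST and ID2 lie above 0 and those of BMP4 and BMPR2 below 0 with both agents, and the 2 intervals of every gene overlap.

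The steepest slopes were those of NOG and GREM1. GREM1 rose by 1.45 per step with EEDS (SE 0.26, limma adjusted p = 0.0252) and by 1.30 with helveticoside (SE 0.26, adjusted p = 0.0373). FST rose by 0.81 (SE 0.16, adjusted p = 0.0306) and by 0.94 (SE 0.16, adjusted p = 0.0279). The fitted slopes of NOG, 1.82 (adjusted p = 0.0332) and 2.33 (adjusted p = 0.0254), rest on control values that were not well above background and are no measure of its size.

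ID2 rose by 0.82 per step with EEDS (SE 0.13, limma adjusted p = 0.0195), and with helveticoside its slope of 0.54 (SE 0.13) had an adjusted p of 0.0516. BMP4 fell by 0.70 per step with EEDS (SE 0.14, adjusted p = 0.0302), and with helveticoside its slope of -0.43 (SE 0.14) had an adjusted p of 0.103. BMPR2 had slopes of -0.37 and -0.41 with adjusted p-values of 0.101 and 0.0932. For ID1, ID3, SMAD6 and BMP2 the adjusted p lay between 0.170 and 0.951.

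No difference of slopes between the agents was called in limma's test, which passed 0 of 19046 genes at an adjusted p under 0.05, 0 in percent, and 525 at an unadjusted p under 0.05, none of them among the 10. The lowest unadjusted p among the 10 was 0.177, for ID2, whose EEDS slope exceeded its helveticoside slope by 0.28 per step, with a 95% interval from -0.17 to 0.72. For GREM1 the difference was 0.16 with an interval from -0.75 to 1.07, and for FST it was -0.13 with an interval from -0.69 to 0.43.

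The calls rested on few arrays. Of the 5 calls with EEDS, none was left without the EEDS vehicle control, without the 20 μg/mL array or without the 15 nM helveticoside array, 2 were left without 1.25 μg/mL, 3 without 60 nM, and 4 without any other single array. Of the 3 calls with helveticoside, none was left without 1.25 μg/mL EEDS, without 15 nM or without 60 nM, and 1 was left without the helveticoside vehicle control (GREM1), without 3.75 nM (NOG) or without 5 μg/mL EEDS (FST). FST and NOG were left without the EEDS vehicle control or without 20 μg/mL. Across the other choices of signal, scaling, filter and probe, the EEDS calls of NOG, GREM1, FST, ID2 and BMP4 and the helveticoside calls of NOG, GREM1 and FST were all retained. ID2 with helveticoside passed as well with the scanned signal, normexp, 75th percentile scaling, normalization within series, the deposited values, the well-above-background filter and probe means, its adjusted p ranging from 0.0094 to 0.0516. BMPR2 passed with EEDS under 75th percentile scaling and in the deposited values, with a lowest adjusted p of 0.0182.

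The other 62 genes of a BMP pathway list, grouped by role, were all on the array, 36 of them well above background on all 8 arrays and 14 on none. At 20 μg/mL EEDS 20 of the 62 were more than 2-fold higher and 6 lower, beside 13.3% and 14.5% of all genes, and at 60 nM helveticoside 18 were higher and 3 lower, beside 10.8% and 12.8%. Their median log2 ratio was 0.42 and 0.19 at these doses, beside 0.02 and 0.00 over all genes. Of the 45 well above background on 1 or both of the arrays compared, 18 were higher and 5 lower at 20 μg/mL EEDS. At 60 nM helveticoside the number was again 45, of which 17 were higher and 3 lower. The share of all genes under that restriction was not counted, so the shares above are no background for these counts. The 62 were chosen with earlier results of these data known. In the limma trend 12 rose and 3 fell with EEDS, beside 7.27% and 7.85% of all genes, and 9 rose and 2 fell with helveticoside, beside 5.48% and 5.8%.

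The group with the most changes held the SMADs and their intracellular regulators. Of these 11, 7 were more than 2-fold higher at 20 μg/mL EEDS, beside 13.3% of all genes. At 60 nM helveticoside 6 of the 11 were, beside 10.8%. None was lower at either dose, beside 14.5% and 12.8% of all genes. The list was chosen with earlier results of these data known, so the counts are a description and no test. SMAD7, the other inhibitory SMAD, rose with both agents, by 0.52 and 0.50 per step (limma adjusted p = 0.0132 and 0.0165). SMURF1 and SMURF2, ubiquitin ligases that mark SMADs and receptors for destruction, rose too, SMURF1 to 3.57-fold and 4.04-fold at the top doses and SMURF2 to 3.86-fold with EEDS and at least 3.35-fold with helveticoside. LEMD3, an inner nuclear membrane protein that binds SMADs, rose with both agents, to 2.39-fold and 2.01-fold. The corepressor SKIL and the phosphatase PPM1A rose with EEDS, to 5.20-fold and 2.78-fold. With helveticoside they reached 2.84-fold and 2.06-fold, with adjusted p-values of 0.0605 and 0.059. SMAD9, a BMP receptor SMAD, exceeded its vehicle level by at least 2.01-fold with 20 μg/mL EEDS and by at least 1.03-fold with 60 nM helveticoside, and at 3.75 and 15 nM its probe was dim on both arrays and no fold is given.

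Among 14 other antagonists and binding proteins, 5 were more than 2-fold higher at 20 μg/mL EEDS, 4 at 60 nM helveticoside and none lower. The shares of all genes at these doses were 13.3% and 10.8% higher, and 14.5% and 12.8% lower. FSTL3, a relative of FST that also binds activins, rose to 5.00-fold and 4.42-fold (limma adjusted p = 0.0146 and 0.0185). BMPER, a secreted BMP binder, was 2.35-fold and 4.63-fold higher and TWSG1, another, 2.05-fold and 2.06-fold, without passing the trend test.

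Of 16 other ligands, 2 were higher at each top dose, GDF15 and GDF6, and 3 were lower at 20 μg/mL EEDS, BMP6, BMP8B and BMP8A, the last with a probe dim on both arrays. None was lower at 60 nM helveticoside. GDF15, a distant family member and stress-induced cytokine that does not use the BMP receptors, rose to 6.75-fold and 5.25-fold (limma adjusted p = 0.0249 and 0.0317). GDF6, a BMP family ligand, was at least 10.5-fold and 4.98-fold higher, with limma trend adjusted p-values of 0.062 and 0.056. BMP6, like BMP4 a ligand, was 4.86-fold lower at 20 μg/mL EEDS and had a log2 ratio of -0.87 at 60 nM helveticoside, with trend adjusted p-values of 0.0588 and 0.428. BMP8B fell by 0.35 and 0.16 per step (adjusted p = 0.0132 and 0.0408).

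Of 11 other receptors and co-receptors, BAMBI, a decoy receptor that is itself a target of the pathway, fell with both agents, to 2.90-fold and 2.99-fold lower (limma adjusted p = 0.0445 and 0.0396). ACVR2A, a type II receptor for activins and BMPs like BMPR2, was 4.60-fold and 3.63-fold higher, with trend adjusted p-values of 0.037 and 0.061, where BMPR2 was lower. ACVR1, a type I receptor, rose by 0.31 and 0.33 per step (adjusted p = 0.019 and 0.0214). RGMB, a BMP co-receptor, only just passed 2-fold at 60 nM helveticoside, and for ENG, another, the probe was not well above background there.

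Targets beyond ID1, ID2 and ID3 were as mixed as those 3. ID4, the remaining ID gene, was 5.74-fold and 4.42-fold higher at the top doses with trend adjusted p-values of 0.0686 and 0.127. The homeobox gene DLX2 was 22.9-fold higher at 20 μg/mL EEDS and at least 3.87-fold higher at 60 nM helveticoside. Its limma trend adjusted p-values were 0.0636 and 0.0924. MSX1, another homeobox gene, was 2.35-fold and 1.55-fold higher and rose in the EEDS trend (limma adjusted p = 0.024). ATOH8, a basic helix-loop-helix gene, was 4.40-fold and 3.31-fold lower and fell in the EEDS trend (adjusted p = 0.0411). Of the E proteins that ID proteins bind, TCF12 rose to 2.40-fold and 2.19-fold (adjusted p = 0.0259 and 0.0381), and TCF3 was 2.11-fold lower at 20 μg/mL EEDS.

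**Figure D4:**
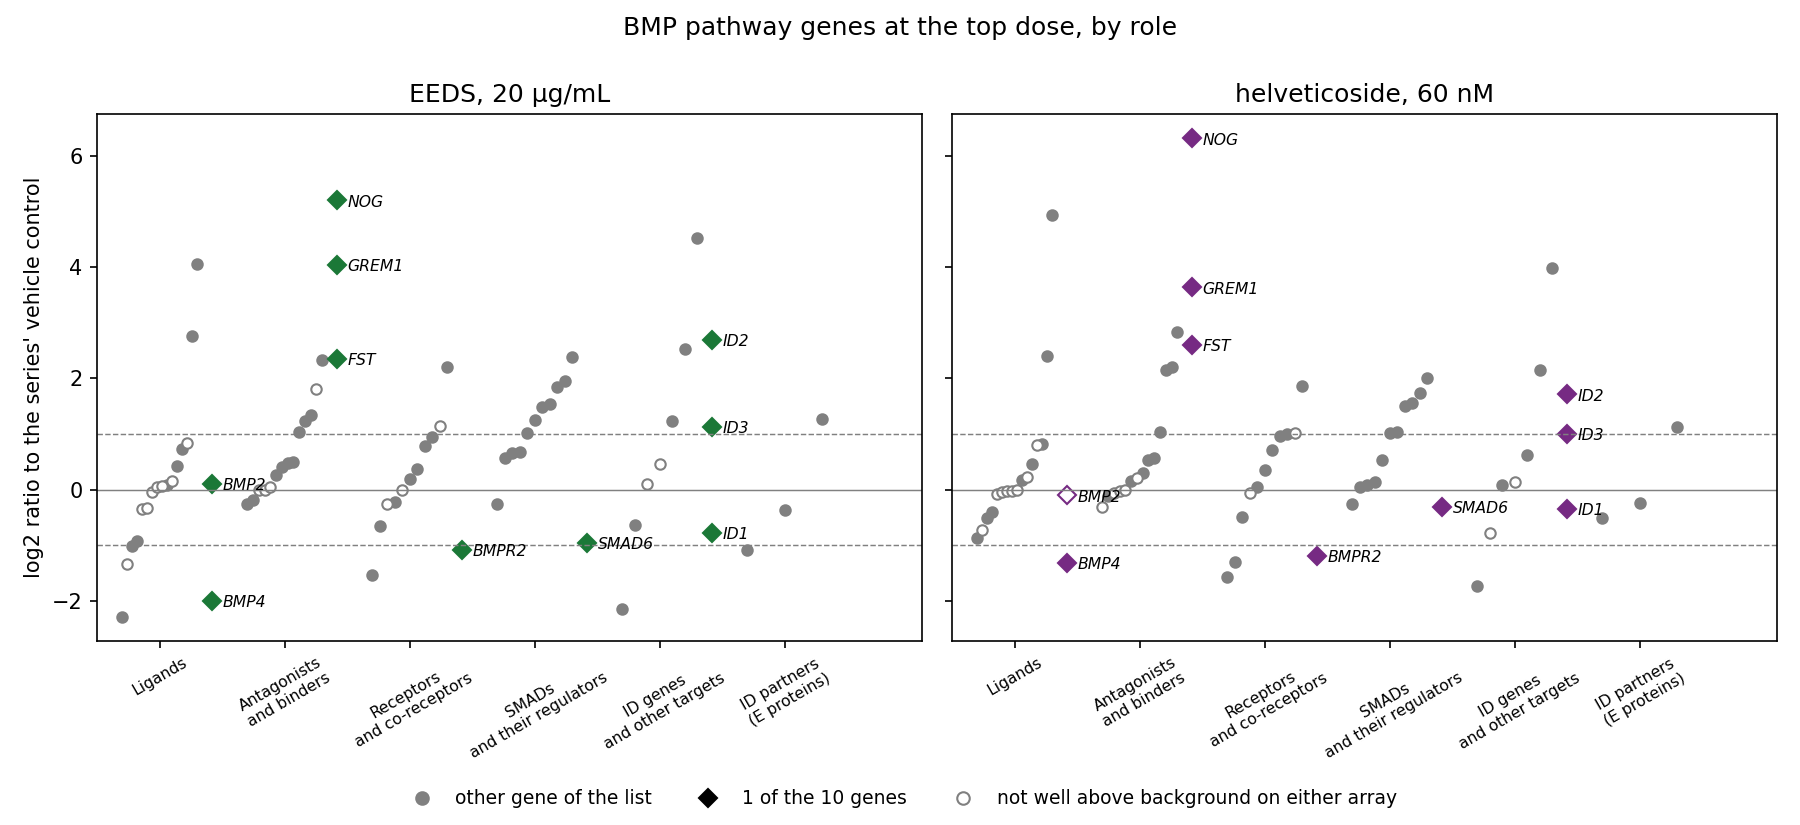
Log2 ratio to the series' own vehicle control at 20 μg/mL EEDS (left) and 60 nM helveticoside (right) for the 62 other pathway genes (circles) and the 10 genes described here (diamonds), by role; dashed lines mark 2-fold and open symbols a probe not well above background on either array. NOG, plotted at its measured ratio, rests on a dim control, and the SMADs and their regulators lie mostly above 0 with SMAD6 below it.

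The genes whose 6 log2 ratios lay nearest to those of each of the 8 genes measured on all arrays were sought by the root mean square difference, given in parentheses on the log2 scale, over 11485 others. The 3 ratios of a series share 1 control array, so they are not independent points. ID2 was most like CDKN2AIP, a regulator of the p53 pathway (0.08), and IER2, an immediate early gene (0.15). ID3 was most like STAT3, the cytokine-activated transcription factor (0.10), and the interleukin receptor gene IL4R (0.11). GREM1 was most like DNAJB2, a co-chaperone (0.34), and FST was most like GDF15 (0.21) and the histone demethylase gene KDM7A (0.23).

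BMP4 had MUS81, an endonuclease gene (0.15), and TBC1D2B (0.22) as its nearest genes, and BMPR2 had ULK2, an autophagy kinase (0.07), and BCS1L, a mitochondrial assembly factor (0.09). ID1 lay nearest to NRP2, a semaphorin co-receptor (0.17), and YAF2 (0.17), and SMAD6 to ANG, the gene for angiogenin (0.06), and CAMKK1, a kinase (0.13). None of the 8 had another of them as its nearest gene. The closest pair among them was ID1 and SMAD6, at 0.40, and 717 other genes lay nearer to ID1 than SMAD6 did. FST was the nearest of the 8 to GREM1, at 0.97, with 71 other genes between.

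The labelled cell type was checked by marker genes. All 6 epithelial markers were well above background on all 8 arrays, but CDH1, the E-cadherin gene, was lower at the top doses by log2 ratios of -2.70 and -2.71, and KRT19, a keratin gene, by -1.90 and -1.72. EPCAM, KRT7, KRT8 and KRT18 stayed within 2-fold. Of 5 alveolar type II markers, NKX2-1, SFTPA1, SFTPB and LAMP3 were well above background on no array and SFTPC on 4.

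Of the markers of other cells, COL1A1 of 6 fibroblast genes, CDH5 of 4 endothelial genes and PTPRC and CD14 of 4 blood cell genes were well above background on all 8 arrays. The defining markers COL1A2, DCN, PDGFRA, PECAM1, VWF, KDR and CD3E were so on none, and COL3A1 and LUM on 1 and 2. The summed linear signal of the fibroblast list ranged from 317 to 630 on the EEDS arrays and from 297 to 443 on the helveticoside arrays. That of the endothelial list ranged from 147 to 167 and from 219 to 246, and that of the blood list from 798 to 3404 and from 761 to 3682. At the top doses, where GREM1, FST and ID2 were highest and BMPR2 lowest, CD14 had log2 ratios of -1.57 and -2.28 and COL1A1 of 0.80 and 0.72. Their part in those values was not tested.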

How the data were processed

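The files the authors deposited give, for every spot of 8 arrays, an intensity from the scanning program, the same after subtraction of background, and flags for outliers and for spots well above background. A further deposited table holds linear intensity with 2427 blanks, judged by its values to be quantile-normalized in either series on its own. Its EEDS values lay nearer the background-subtracted signal used here. The log2 ratio of NOG at 20 μg/mL was 4.67, beside 5.20 here and 3.15 as scanned. Its helveticoside values lay nearer the scanned signal, with 2.87 for NOG at 60 nM beside 6.31 here and 3.19 as scanned. Whether background had been subtracted there was not tested. The table served as an alternative, with helveticoside one not clearly distinct from the scanned signal.

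Outlier spots were dropped, the background-subtracted signals of a probe's spots were averaged, and the 8 arrays were brought together by quantile normalization and expressed as log2 values. Of 34127 probes, 24812 were matched to 19056 gene symbols of GRCh38.p14 through their accessions. The probe with the highest mean stood for each of 4797 genes with more than 1. Genes were kept in a series when a median signal reached 1.4 times the local background on at least 1 array, which kept 19046 genes with EEDS and 19056 with helveticoside. Where a probe was not well above background on one of the 2 arrays, the ratio was replaced by a bound against the lowest well-above-background signal of that array or the probe's own, whichever was higher, and no fold was given where both were dim.

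Each dose was compared with its own vehicle control without a test. The trend with dose came from limma 3.58.1 under R 4.3.3 (robust, trended eBayes with statmod 1.5.0), with an intercept and slope for either series, leaving 4 residual degrees of freedom. The p-values were adjusted by Benjamini-Hochberg over all genes tested with a threshold of 0.05. The fit was tested on simulated data. With no replicate cultures, its p-values measure departures from a straight line and not spread between cultures. Other steps used Python 3.11.15, numpy 2.4.6 and pandas 2.3.3.

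The 10 genes, the pathway list, the motifs and the markers were chosen with earlier results of these data known. The genes named are the 10, list genes past 2-fold at a top dose and well above background on the treated or control array, the 2 nearest genes of each member measured on all arrays, and the markers. ACVR1 was added after its trend was seen. Values of some genes under this rule are not reported here. The alternatives were the scanned signal, normexp with an offset of 50, 75th percentile scaling, normalization within series, the deposited values, 2 filters, probe means, the other control, thresholds of 1.5-fold and 3-fold, doses left out, linear dose and 1 series alone. Leaving out single arrays was added after the data were seen. Slides and scan times were not examined.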

Additional observations from a re-analysis of the deposited data

How the results depend on the processing

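With 1 array per dose, the depth of a value is the signal over background, which limits NOG, whose controls were dim, and BMP2, which was dim on all helveticoside arrays. No paired analysis of replicates was possible because each dose had 1 array. The count of the 10 genes more than 2-fold lower at 20 μg/mL EEDS, 2, became 1 with the scanned signal, with normexp, with the other control and at 3-fold, and 4 at 1.5-fold. At 60 nM helveticoside it was 2 and became 0 with the scanned signal, with normexp, with the deposited values and at 3-fold. At 3-fold, the list genes higher at 20 μg/mL EEDS were 10 in place of 20 and those lower 2 in place of 6, and at 60 nM helveticoside they were 10 in place of 18 and 1 in place of 3. The deposited values gave 11 higher at 60 nM, and 1.5-fold gave 6 lower. The 5 genes with an EEDS trend became 0 without the lowest, the middle or the top dose of each series or with the 4 arrays of the series alone, and 3, namely ID2, ID3 and BMPR2, on a linear dose scale. The 3 with a helveticoside trend became 0 without the lowest, middle or top dose or with its 4 arrays alone, and 1, BMPR2, on the linear scale. These settings leave fewer arrays or another dose spacing. In those with fewer arrays none of all 19046 genes was called with either agent. On the linear scale 2164 of all genes were called with EEDS and 788 with helveticoside. The cause of the loss was not tested. Leaving out single arrays gave 0 to 4 genes with an EEDS trend and 0 to 3 with a helveticoside trend. Over all genes it gave 0 to 2625 and 0 to 1479. The slope of BMP2 with EEDS became -0.0793 under 75th percentile scaling. Without the top dose, or its array alone, the slopes of ID3 and SMAD6 with EEDS became -0.0008 and 0.11, and those of BMP2 and SMAD6 with helveticoside 0.0857 and 0.21. At the other end, without the vehicle control array of the series, they were 0.5250, -0.7786, -0.1355 and -0.2843. None of these slopes had been called. The test of the slope difference called 0 of the 10 genes throughout. Apart from single arrays left out, 222 slopes kept their direction and side of the threshold, 12 passed it, 39 no longer did and 5 turned sign. Of the log2 ratios, 358 stayed within the spread allowed and 179 moved.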
